A study of Homo sapiens with 12 samples.

Results

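The 39 genes described here are established markers of the type I interferon response, chosen by symbol and found among the 46427 genes of the deposited table, all of them by that symbol. They were measured by RNA sequencing in HT1080 cells, an established human fibrosarcoma line, with 3 libraries in each of 4 groups: siTRIP12 and siOTUD5 together (siTRIP12+siOTUD5), siTRIP12 alone, siOTUD5 alone, and a scrambled control siRNA. All cells therefore carried an siRNA, and no untransfected or interferon-treated cells were analysed here, so every change below is relative to scrambled siRNA or between siRNAs. The labels give neither the siRNA sequences and amounts nor whether replicates were separate cultures, and p-values may therefore measure technical spread only. The cell line label counts upwards from HT1080 across samples, while the design names HT1080 alone.

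Type I interferons are secreted after nucleic acid sensors detect viral or misplaced RNA or DNA. They bind a receptor on the cell surface, and the receptor's kinases activate a transcription factor that contains STAT2 and IRF9 and binds the interferon-stimulated response element (ISRE) of its target genes; interferon gamma acts through another site, the gamma-activated sequence (GAS), found for instance in the promoter of IRF1. The targets include ISG15, a ubiquitin-like modifier, and proteins that bind or degrade viral RNA or block virus entry, and a basal level of many of them is present without infection. TRIP12 is a ubiquitin ligase, and OTUD5, also called DUBA, is a deubiquitylase known for removing ubiquitin chains from TRAF3 and so restraining the production of type I interferon.

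The response elements are printed for 8 members whose levels differed between siRNA groups, because most of these genes share the element. Windows of 60 bases came from RefSeq promoters (GRCh38.p14, from 250 bases before to 50 after the transcript start of each promoter entry), read 5′ to 3′ on the gene's strand: ISG15 at chr1:1013362-1013421 (+ strand), IFIT1 at chr10:89392488-89392547 (+ strand), ISG20 at chr15:88638922-88638981 (+ strand), OAS3 at chr12:112938437-112938496 (+ strand), IFITM3 at chr11:320870-320929 (- strand), DTX3L at chr3:122564307-122564366 (+ strand), IFI44 at chr1:78649746-78649805 (+ strand), and IRF1 at chr5:132490864-132490923 (- strand). Capitals mark the ISRE core in the first 7, which is GAAA, any 2 bases and GAAA again, searched on both strands (TTTC, any 2 bases and TTTC when read on the other), overlapping matches being merged. They mark the GAS motif TTCNNNGAA, which is its own reverse complement, in IRF1.
ISG15: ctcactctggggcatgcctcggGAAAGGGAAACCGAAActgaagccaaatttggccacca
IFIT1: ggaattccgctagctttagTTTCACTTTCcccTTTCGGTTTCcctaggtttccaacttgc
ISG20: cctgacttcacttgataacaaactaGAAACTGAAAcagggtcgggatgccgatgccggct
OAS3: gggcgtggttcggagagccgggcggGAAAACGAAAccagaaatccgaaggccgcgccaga
IFITM3: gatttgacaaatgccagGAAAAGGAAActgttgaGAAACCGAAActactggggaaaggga
DTX3L: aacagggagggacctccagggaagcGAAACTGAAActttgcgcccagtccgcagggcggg
IFI44: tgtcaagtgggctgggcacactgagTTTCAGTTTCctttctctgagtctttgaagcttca
IRF1: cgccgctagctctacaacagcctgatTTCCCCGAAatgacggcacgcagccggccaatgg
The first marked base lies 113 bases before the start of the promoter entry in ISG15, 116 in IFIT1, 69 in ISG20, 12 in OAS3, 52 in IFITM3, 6 in DTX3L, 18 in IFI44 and 124 in IRF1. The start of the ISG20 entry lies within the gene's span (88635632 to 88656483), not at its first base. The entries of DDX60, IFI27 and XAF1 likewise start within the gene. Of the 32 members with a promoter entry, 21 (65.6%) held an ISRE core, against 996 of 27305 promoters of the same length (3.65%). A GAS match stood in 9 members' promoters (28.1%), against 7.88% of all promoters, and in BST2, IFI27 and IFITM1 it overlapped an ISRE core. The ISRE core was found in 18 of 26 tested members and in 3 of 6 members with too few reads to test. USP18, OASL, MX2, OAS2, IRF7, IFITM2 and IFIT2 had no promoter entry. IRF1, DTX3L, IFI44 and IFITM3 stand for genes with different patterns across the siRNAs, which are given below with their values.

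Of the 39 genes, 31 had enough reads to be tested, 7 fell below the filter on low counts, and IRF7 was listed at 0 in all 12 libraries. The 7 were the antiviral proteins HERC5, MX2, RSAD2 and CMPK2, and IFI27, IFI44L and XAF1, with at most 23 reads in a library (CMPK2) and at most 13 in the others. IRF7 encodes the factor that amplifies interferon production, but 24 genes of the table had 0 in one library and at least 100 reads in another, so a 0 here can be a failed estimate and its absence from the cells cannot be read from it. On the length-scaled TPM scale, IFITM3, a membrane protein that blocks virus entry, was the most abundant member at 345 to 486 TPM, and its close paralog IFITM2 followed at 145 to 193 TPM. ISG15 lay at 40.9 to 66.5 TPM, IFI35 at 27 to 45.2 TPM and DTX3L at 14.2 to 28.2 TPM, with ranges that overlapped between IFI35 and ISG15 and between IFI35 and DTX3L. The canonical interferon markers were low: IFIT1 lay at 1.47 to 3.28 TPM, OAS1 at 0.745 to 1.895 TPM, MX1 at 0.138 to 0.413 TPM with 9 to 27 reads in a library, and OAS2 at 0 to 0.552 TPM. In the order of levels over the 12 libraries, IFITM3, IFITM2 and ISG15 did not overlap with each other, and from ISG15 downwards each gene overlapped with the next.

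**Figure D1:**
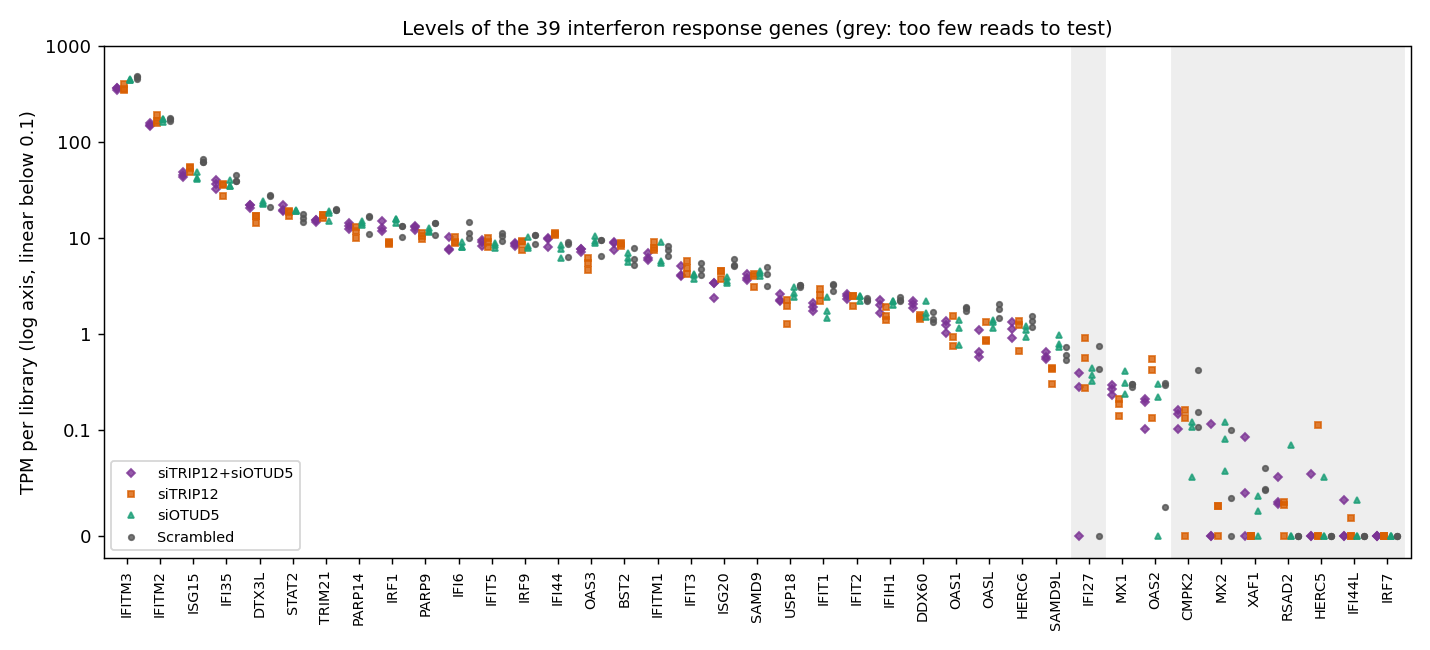
TPM of each of the 39 interferon response genes in each of the 12 libraries, on a log axis that is linear below 0.1, ordered by level, with 3 points for each of siTRIP12+siOTUD5, siTRIP12, siOTUD5 and Scrambled; grey bands mark the 8 genes with too few reads to test. IFITM3 reaches 486 TPM, while MX1 reaches 0.413 TPM.

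Library totals ranged from 37912312 to 43881471 reads, and a count of 3, taken as the limit that a count of 0 allows within counting error, corresponds to 0.0668 to 0.0793 CPM. The siRNAs lowered their targets. TRIP12 averaged 53.2 ± 2.70 CPM in siTRIP12+siOTUD5, 41.8 ± 3.92 CPM in siTRIP12, 315 ± 1.76 CPM in siOTUD5, and 322 ± 39.8 CPM in scrambled libraries (SD, n = 3 each). More TRIP12 remained in every siTRIP12+siOTUD5 library (50.1 to 55.0 CPM) than in any siTRIP12 library (38.9 to 46.2 CPM). OTUD5 averaged 10.9 ± 1.34 CPM in siTRIP12+siOTUD5, 73.8 ± 0.275 CPM in siTRIP12, 11.1 ± 0.749 CPM in siOTUD5, and 59.8 ± 1.13 CPM in scrambled libraries. Scrambled replicate 3 stood apart: its levels fell with transcript length relative to other libraries (Spearman's rho across genes of -0.305, a description, since genes are not replicates), as did those of siTRIP12 replicate 3 (-0.22), against -0.0527 to 0.2 in the other 10. Scrambled replicate 3 enters all 3 comparisons with scrambled siRNA, and counts without these 2 libraries are given beside the main ones. Of the 6 mesenchymal markers VIM, FN1, SPARC, THY1, MMP2 and PDGFRB, 5 had enough reads to be tested, and THY1 had 4 reads in all 12 libraries together. Their summed levels were 3922 to 3981 CPM in siTRIP12+siOTUD5, 3561 to 3895 CPM in siTRIP12, 4415 to 4665 CPM in siOTUD5, against 4610 to 4812 CPM in scrambled libraries. Most of this sum came from VIM (1617584 reads over the 12 libraries) and SPARC (400986 reads). Summed markers of other cells were 0.137 to 1.23 CPM for leukocytes, at most 0.217 CPM for epithelium, and 0.449 to 1.04 CPM in siTRIP12+siOTUD5, 0.735 to 1.07 CPM in siTRIP12, 0.609 to 1.22 CPM in siOTUD5, against 1.404 to 2.43 CPM in scrambled libraries, for endothelium. Of 4 markers of plasmacytoid dendritic cells, which are known as strong interferon producers, CLEC4C and LILRA4 were listed at 0, and the sum of 10.1 to 14.8 CPM came from IL3RA and TCF4.

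The siRNA groups differed from each other in a large part of the interferon genes, at a share not far above that of all genes. Among the 31 tested, 20 (64.5%) differed in at least 1 of the 6 pairwise comparisons, beside 55.5% of all 16283 tested genes, and 20 differed among the 4 groups in a single test of all group means, beside 46.7% of all genes. BST2 passed the 4-group test but no pairwise one and IFI35 the reverse, so that 21 passed at least 1 of these tests and 10 passed none. Without siTRIP12 replicate 2, 13 in place of 20 passed the 4-group test. Called here means an adjusted p under 0.05 in edgeR's quasi-likelihood test, with Benjamini-Hochberg adjustment over all genes tested, and changes are log2 ratios ± SE. Where a call was lost without certain replicates, each was left out in turn, and losses with a replicate block are not named beside the genes. The 3 comparisons with scrambled siRNA share its 3 libraries, so their directions are not independent of each other.

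After siTRIP12, 14 of the 31 tested genes were called lower than after scrambled siRNA and 1, IFI44, was called higher. The median change of the 31 was log2 -0.33, against 0.01 over all genes, of which 17.4% were called lower and 14.5% higher (31.9% in either direction). With upper-quartile factors the balance over all genes turned, to 2232 lower and 2964 higher in place of 2827 and 2367, and that of the members was 13 lower and 2 higher. In bulk RNA, fewer cells of a type and less RNA per cell cannot be told apart. The summed mesenchymal markers were also lower after siTRIP12 and after siTRIP12+siOTUD5, and their part in the result was not tested. The count of 15 became 9 without siTRIP12 replicate 2 or without siTRIP12 replicate 3, and 12, with 11 genes shared, without replicate 3 of both scrambled and siTRIP12.

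After siOTUD5, 5 genes were lower (ISG15, IFIT1, IFIT5, ISG20 and IFI6) and 2 were higher (STAT2 and IRF1) than after scrambled siRNA, with a median of log2 -0.14, against -0.01 over all genes. This total of 7, or 22.6%, stands beside 23.2% of all genes, of which 11.9% were lower and 11.4% higher: the share of members called was near that of all genes. It became 4 without scrambled replicate 1, 3 without siOTUD5 replicate 2, and 8, with 5 genes shared, without replicate 3 of both scrambled and siTRIP12.

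After siTRIP12+siOTUD5, 8 genes were lower and 2 were higher (STAT2 and DDX60) than after scrambled siRNA, a share of 32.3% beside 30.9% of all genes, of which 16.2% were lower and 14.7% higher. The median change was log2 -0.20, against 0.00 over all genes. When single libraries were left out, 7 to 11 were called, with 7 without scrambled replicate 1. Fitting only the groups compared gave 8. Without replicate 3 of both scrambled and siTRIP12, 13 were called, with all 10 shared.

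**Figure D2:**
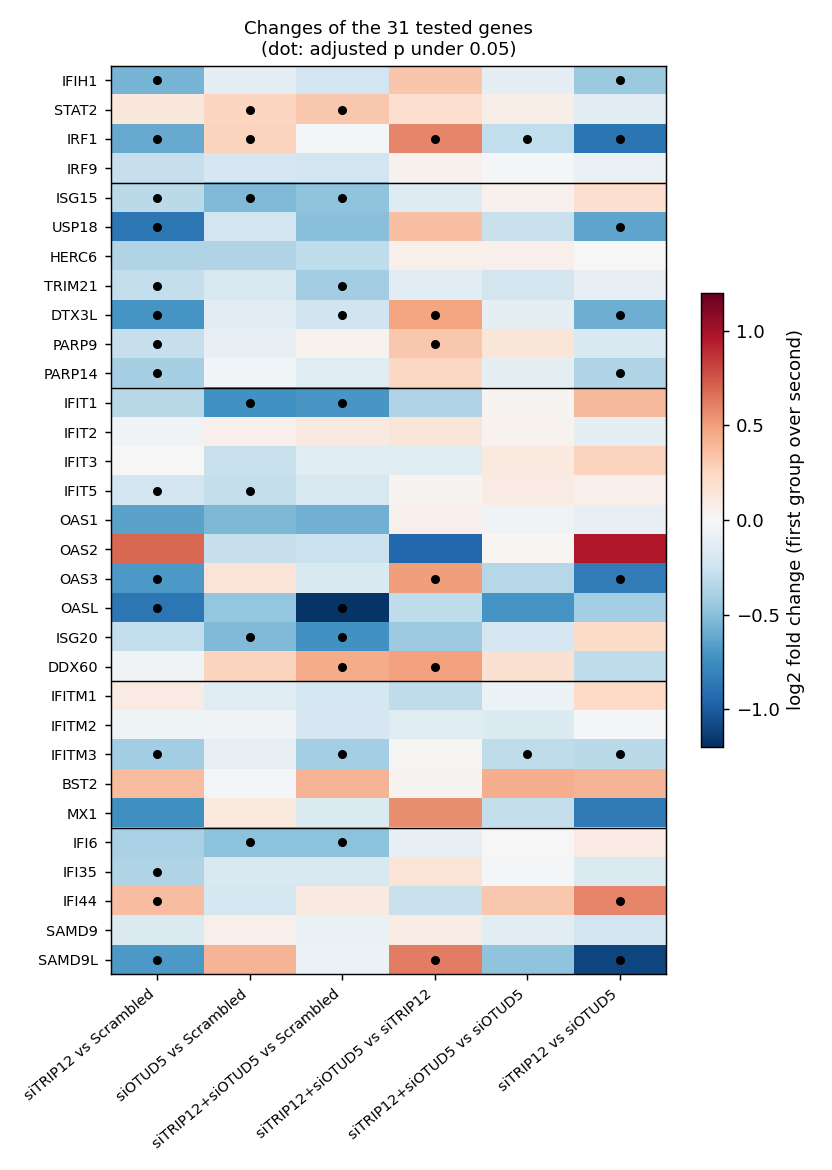
Heat map of log2 fold changes, first group over second, of the 31 tested interferon genes (rows, grouped by role) in the 6 pairwise comparisons (columns), where a dot marks an adjusted p under 0.05. The siTRIP12 vs Scrambled column is mostly lower with 14 such calls, and the siTRIP12+siOTUD5 vs siTRIP12 column holds 6 calls, all higher.

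Compared with siTRIP12 alone, siTRIP12+siOTUD5 left 6 genes higher, and these were all that were called: IRF1, DTX3L, PARP9, OAS3, DDX60 and SAMD9L. Of all genes, 8.78% were higher and 6.93% lower (15.7% in either direction), and the members' median was log2 0.06, against 0.00. The count became 3 without siTRIP12 replicate 2 or 3 or without siTRIP12+siOTUD5 replicate 1, and stayed at 6, with 4 genes shared, without replicate 3 of both scrambled and siTRIP12. More TRIP12 remained after siTRIP12+siOTUD5 than after siTRIP12, and the part of this in these 6 differences was not tested. Compared with siOTUD5 alone, siTRIP12+siOTUD5 left 2 genes lower, IRF1 and IFITM3, which were all that were called, beside 5.07% of all genes lower and 3.35% higher (8.41% in either direction), with a median of log2 -0.04, against 0.01. That count became 1 without siOTUD5 replicate 2 or siTRIP12+siOTUD5 replicate 2 or 3, 0 without siTRIP12+siOTUD5 replicate 1, 4 without scrambled replicate 3, and 5 without replicate 3 of both scrambled and siTRIP12. Directly compared, siTRIP12 left 8 genes lower and 1 higher (IFI44) than siOTUD5, beside 15.9% of all genes lower and 13.9% higher (29.8% in either direction), with a median of log2 -0.10, against 0.01. With upper-quartile factors the split was 7 lower and 3 higher. The 8 were IFIH1, IRF1, USP18, DTX3L, PARP14, OAS3, IFITM3 and SAMD9L.

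Among sensors and signalling factors, IRF1 and STAT2 moved differently. IRF1 (chromosome 5, 132481609 to 132490773, GRCh38.p14) is a transcription factor that is induced by interferon and keeps many immune genes at their basal level. It was measured at 19.7, 18.9 and 18.7 CPM in siTRIP12+siOTUD5 and 12.1, 13.6 and 12.6 CPM in siTRIP12 libraries. IRF1 had 24.1, 24.2 and 21.9 CPM in siOTUD5 and 20.8, 20.5 and 17.2 CPM in scrambled libraries. The 3 siTRIP12 libraries were the lowest of all 12 and the 3 siOTUD5 libraries the highest, without overlap with any other group, while the siTRIP12+siOTUD5 libraries lay within the range of the scrambled ones. IRF1 fell after siTRIP12 (log2 -0.61 ± 0.08, edgeR adjusted p = 3.1e-05) and was lower than after siOTUD5 (-0.87 ± 0.08, adjusted p = 5.2e-07). It was higher after siTRIP12+siOTUD5 than after siTRIP12 (0.58 ± 0.08, adjusted p = 1.5e-04) and lower than after siOTUD5 (-0.29 ± 0.08, adjusted p = 0.0356), a call lost without siOTUD5 replicate 1 or 2 or siTRIP12+siOTUD5 replicate 1 or 2 or 3 (highest adjusted p = 0.129). The rise after siOTUD5 (log2 0.27 ± 0.08, edgeR adjusted p = 0.0267) lost its call without scrambled replicate 3 or siOTUD5 replicate 1 or 2, when only the groups compared were fitted and without replicate 3 of both scrambled and siTRIP12 (highest adjusted p = 0.105). After siTRIP12+siOTUD5 the difference from scrambled was log2 -0.03 ± 0.08, with a 95% interval of -0.20 to 0.15; intervals here are not adjusted for the number of genes.

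STAT2 (chromosome 12, 56341597 to 56360107) is the transcription factor that, with IRF9, binds the ISRE. Its level was 39.3, 45.2 and 40.4 CPM in siTRIP12+siOTUD5 and 33.4, 37.7 and 37.7 CPM in siTRIP12 libraries. STAT2 had 39.5, 39.5 and 40.3 CPM in siOTUD5 and 35.4, 32.5 and 32.1 CPM in scrambled libraries. All siTRIP12+siOTUD5 and siOTUD5 libraries lay above all scrambled ones, and siTRIP12 libraries overlapped with scrambled. STAT2 rose after siTRIP12+siOTUD5 (log2 0.32 ± 0.07, edgeR adjusted p = 0.00234) and after siOTUD5 (0.26 ± 0.07, adjusted p = 0.015), and after siTRIP12 the difference was 0.12 ± 0.07 (adjusted p = 0.205). IRF9 (chromosome 14, 24161265 to 24166565), its partner, stood at 6.75, 6.68 and 6.297 CPM in siTRIP12+siOTUD5 and 5.37, 6.81 and 6.93 CPM in siTRIP12 libraries. IRF9 had 6.45, 5.99 and 7.65 CPM in siOTUD5 and 8.08, 8.08 and 6.95 CPM in scrambled libraries. The siTRIP12+siOTUD5 and siTRIP12 libraries all lay below the scrambled ones, and the siOTUD5 libraries overlapped with every other group. None of the pairwise tests called IRF9: the siTRIP12 difference from scrambled was log2 -0.28 ± 0.13 (edgeR adjusted p = 0.106, 95% interval -0.54 to -0.01).

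IFIH1 (chromosome 2, 162267074 to 162318684), the RNA sensor also called MDA5, was measured at 2.798, 3.43 and 3.73 CPM in siTRIP12+siOTUD5 and 3.07, 2.28 and 2.55 CPM in siTRIP12 libraries. IFIH1 had 3.45, 3.68 and 3.66 CPM in siOTUD5 and 3.99, 3.78 and 3.903 CPM in scrambled libraries. The siTRIP12 values were all below the scrambled ones and overlapped with those of siTRIP12+siOTUD5. IFIH1 fell after siTRIP12 (log2 -0.56 ± 0.15, edgeR adjusted p = 0.00988), a call lost without siTRIP12 replicate 2 (highest adjusted p = 0.0586). It was also lower than after siOTUD5 (-0.45 ± 0.15, adjusted p = 0.0372), a call lost without siTRIP12 replicate 2 or 3 or siOTUD5 replicate 1 or 2 or 3, with upper-quartile factors, with no filter and without replicate 3 of both scrambled and siTRIP12 (highest adjusted p = 0.149).

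**Figure D3:**
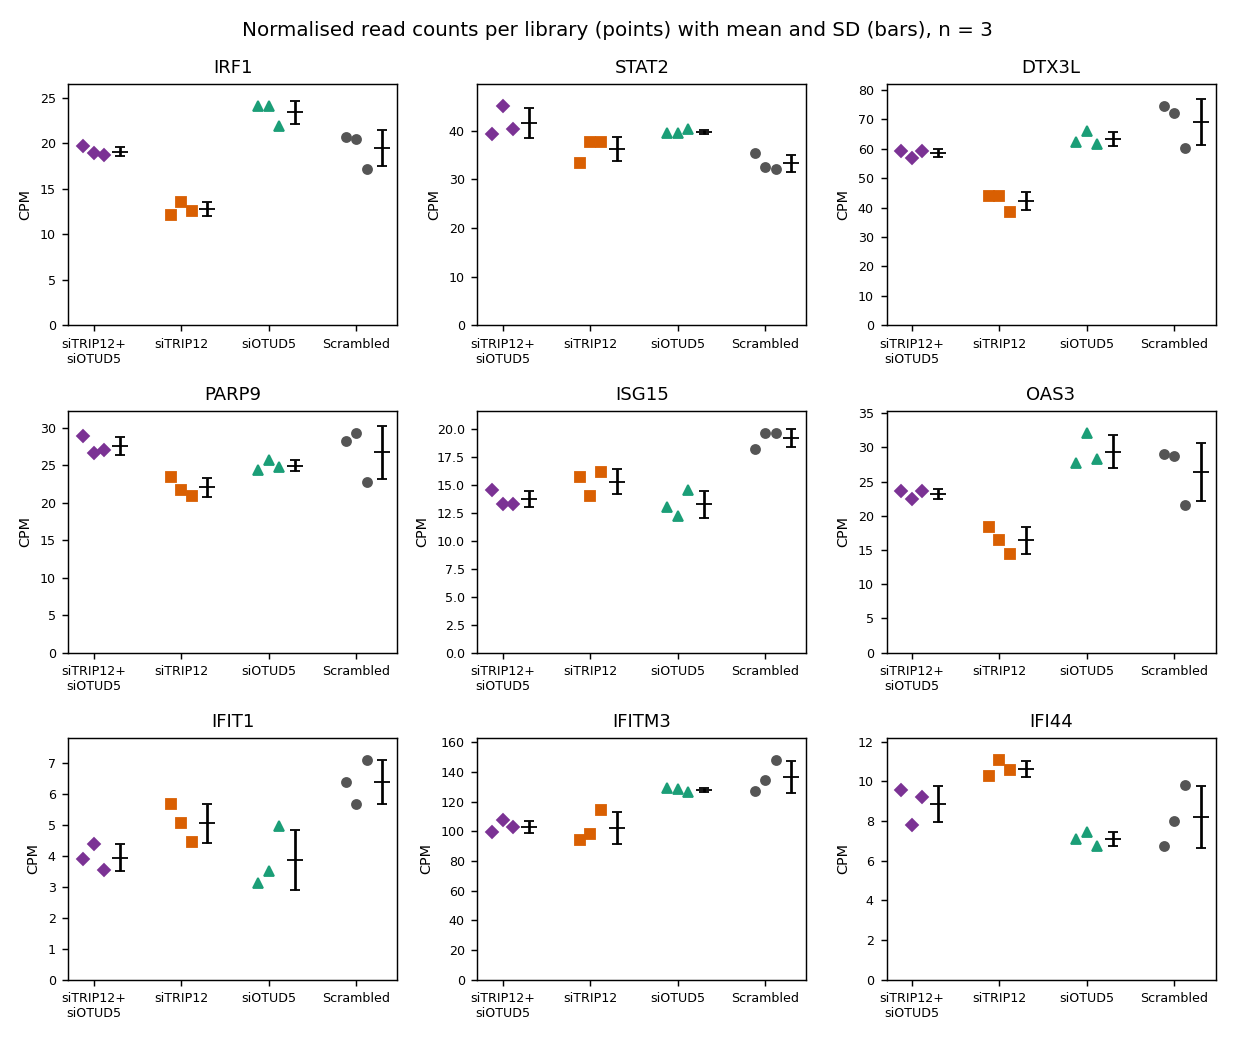
Normalised read counts (CPM) of 9 interferon genes in each library (points), with mean and SD (bars) of 3 libraries, for siTRIP12+siOTUD5, siTRIP12, siOTUD5 and Scrambled, on axes that start at 0. IRF1, DTX3L and OAS3 are lowest in the 3 siTRIP12 libraries, ISG15 is highest in the 3 scrambled libraries, and IFI44 is highest in the 3 siTRIP12 libraries.

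Of 7 tested genes of ISG15 conjugation and of the ubiquitin and ADP-ribose ligases, 3 were lower after siTRIP12+siOTUD5, 6 after siTRIP12 and 1 after siOTUD5, with every call against scrambled siRNA in that direction. As shares called lower these are 42.9% after siTRIP12+siOTUD5 (all genes: 16.2%), 85.7% after siTRIP12 (all genes: 17.4%) and 14.3% after siOTUD5 (all genes: 11.9%), so that the siOTUD5 share was near that of all genes. The roles were assigned with earlier results of these data known, so these shares are no independent test. ISG15 (chromosome 1, 1013497 to 1014540), the ubiquitin-like modifier, stood at 14.5, 13.3 and 13.3 CPM in siTRIP12+siOTUD5 and 15.7, 14.01 and 16.1 CPM in siTRIP12 libraries. ISG15 had 13.02, 12.2 and 14.5 CPM in siOTUD5 and 18.2, 19.6 and 19.6 CPM in scrambled libraries. Every library of the 3 knockdown groups lay below every scrambled library. The fall was log2 -0.48 ± 0.09, edgeR adjusted p = 3.8e-04 after siTRIP12+siOTUD5, -0.33 ± 0.08, adjusted p = 0.00684 after siTRIP12 and -0.53 ± 0.09, adjusted p = 2.7e-04 after siOTUD5. The difference between siTRIP12+siOTUD5 and siTRIP12 was -0.16 ± 0.09 (adjusted p = 0.247, 95% interval -0.34 to 0.02), and that between siTRIP12+siOTUD5 and siOTUD5 0.05 ± 0.09 (95% interval -0.13 to 0.23).

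USP18 (chromosome 22, 18150170 to 18177397) removes ISG15 from proteins and dampens the interferon receptor. Its level was 2.03, 2.11 and 2.47 CPM in siTRIP12+siOTUD5 and 1.83, 1.17 and 2.16 CPM in siTRIP12 libraries. USP18 had 3.05, 2.28 and 2.63 CPM in siOTUD5 and 3.07, 2.86 and 3.43 CPM in scrambled libraries. All 3 siTRIP12 libraries lay below all scrambled and all siOTUD5 ones, at low counts of 51 to 144 reads in a library. USP18 fell after siTRIP12 against scrambled (log2 -0.86 ± 0.21, edgeR adjusted p = 0.00402) and was lower than after siOTUD5 (-0.63 ± 0.21, adjusted p = 0.0298), the second call being lost without siTRIP12 replicate 1 or 2 or siOTUD5 replicate 1 or 3 (highest adjusted p = 0.141). TRIM21 (chromosome 11, 4384897 to 4393702), a ubiquitin ligase that binds antibodies inside cells, was at 13.2, 14.1 and 13.7 CPM in siTRIP12+siOTUD5 and 14.9, 15.2 and 14.6 CPM in siTRIP12 libraries. TRIM21 had 13.9, 16.6 and 17.3 CPM in siOTUD5 and 17.5, 17.6 and 19.4 CPM in scrambled libraries. Both siTRIP12-containing groups lay below all scrambled libraries. It fell after siTRIP12+siOTUD5 (log2 -0.41 ± 0.09, edgeR adjusted p = 0.00148) and after siTRIP12 (-0.29 ± 0.09, adjusted p = 0.0161), where the call was lost without scrambled replicate 3 or siTRIP12 replicate 3 and without replicate 3 of both scrambled and siTRIP12 (highest adjusted p = 0.103).

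DTX3L and PARP9 form a ligase complex, are transcribed in opposite directions, and overlap by 447 bases at their starts on chromosome 3. Whether the counting used strand is not stated, so how reads in that overlap were assigned is not known. DTX3L (chromosome 3, 122564338 to 122575203), the ubiquitin ligase of the pair, was measured at 59.3, 56.9 and 59.3 CPM in siTRIP12+siOTUD5 and 43.8, 43.9 and 38.6 CPM in siTRIP12 libraries. DTX3L had 62.3, 65.9 and 61.6 CPM in siOTUD5 and 74.6, 72.2 and 60.1 CPM in scrambled libraries. The siTRIP12 libraries were all below every library of the other groups, and scrambled replicate 3 was the lowest of its group. DTX3L fell after siTRIP12 (log2 -0.71 ± 0.08, edgeR adjusted p = 1.5e-06), was lower than after siOTUD5 (-0.59 ± 0.08, adjusted p = 1.4e-05), and was higher after siTRIP12+siOTUD5 than after siTRIP12 (0.47 ± 0.08, adjusted p = 3.5e-04). It was also lower after siTRIP12+siOTUD5 than after scrambled siRNA (-0.24 ± 0.07, adjusted p = 0.0223), a call lost without scrambled replicate 1 or 2 or siTRIP12+siOTUD5 replicate 1 or 2 and when only the groups compared were fitted (highest adjusted p = 0.136). Without replicate 3 of both scrambled and siTRIP12, the siTRIP12 change against scrambled was -0.74.

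PARP9 (chromosome 3, 122527924 to 122564784), which binds ADP-ribose, had 28.9, 26.7 and 27.1 CPM in siTRIP12+siOTUD5 and 23.5, 21.8 and 20.9 CPM in siTRIP12 libraries. PARP9 had 24.4, 25.8 and 24.8 CPM in siOTUD5 and 28.2, 29.4 and 22.8 CPM in scrambled libraries. Scrambled replicate 3 overlapped with the siTRIP12 libraries, and the siTRIP12+siOTUD5 libraries all lay above the siTRIP12 ones. PARP9 fell after siTRIP12 (log2 -0.28 ± 0.09, edgeR adjusted p = 0.0195), a call lost without scrambled replicate 1 or 2 or siTRIP12 replicate 2 or 3 and when only the groups compared were fitted (highest adjusted p = 0.0992). It was higher after siTRIP12+siOTUD5 than after siTRIP12 (0.32 ± 0.09, adjusted p = 0.0167), a call lost without siTRIP12 replicate 2 or 3 or siTRIP12+siOTUD5 replicate 1 (highest adjusted p = 0.0819). PARP14 (chromosome 3, 122680839 to 122730840), an ADP-ribosyltransferase of the same region of chromosome 3, was at 50.997, 44.7 and 47.9 CPM in siTRIP12+siOTUD5 and 43.7, 41.2 and 35.8 CPM in siTRIP12 libraries. PARP14 had 50.1, 54.1 and 51.4 CPM in siOTUD5 and 57.6, 58.7 and 42.8 CPM in scrambled libraries. Scrambled replicate 3 overlapped with the siTRIP12 libraries, and the siOTUD5 libraries all lay above them. PARP14 fell after siTRIP12 (log2 -0.40 ± 0.10, edgeR adjusted p = 0.00709; -0.45 without replicate 3 of both scrambled and siTRIP12) and was lower than after siOTUD5 (-0.36 ± 0.10, adjusted p = 0.0127), a call lost without siTRIP12 replicate 3 or siOTUD5 replicate 2 (highest adjusted p = 0.0663). HERC6, the remaining gene of the group, lay at 1.69 to 2.34 CPM in siTRIP12+siOTUD5, 1.18 to 2.42 CPM in siTRIP12, 1.61 to 2.197 CPM in siOTUD5, against 2.11 to 2.999 CPM in scrambled libraries and was called in no pairwise comparison.

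Of 10 tested genes whose products bind or degrade RNA, 3 were lower after siTRIP12 (IFIT5, OAS3 and OASL), 3 after siOTUD5 (IFIT1, IFIT5 and ISG20), and 3 after siTRIP12+siOTUD5 (IFIT1, OASL and ISG20), where DDX60 was higher. In either direction, the called share was 40% after siTRIP12+siOTUD5 (all genes: 30.9%), 30% after siTRIP12 (all genes: 31.9%) and 30% after siOTUD5 (all genes: 23.2%), not far from that of all genes. Called lower were 30% in each comparison, beside 16.2% of all genes after siTRIP12+siOTUD5, 17.4% after siTRIP12 and 11.9% after siOTUD5. IFIT1 (chromosome 10, 89392623 to 89406487), which binds RNA that lacks the methylated cap of host messages, was at 3.91, 4.39 and 3.53 CPM in siTRIP12+siOTUD5 and 5.68, 5.05 and 4.43 CPM in siTRIP12 libraries. IFIT1 had 3.12, 3.503 and 4.95 CPM in siOTUD5 and 6.37, 5.66 and 7.09 CPM in scrambled libraries. All siTRIP12+siOTUD5 and siOTUD5 libraries lay below all scrambled ones, and 1 siTRIP12 library overlapped with scrambled. IFIT1 fell after siTRIP12+siOTUD5 (log2 -0.69 ± 0.17, edgeR adjusted p = 0.004) and after siOTUD5 (-0.73 ± 0.17, adjusted p = 0.00427), and the siTRIP12 difference was -0.33 ± 0.16 (adjusted p = 0.13).

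OAS3 (chromosome 12, 112938474 to 112973251) makes the 2′-5′-linked oligoadenylate that activates RNase L. It was measured at 23.7, 22.4 and 23.5 CPM in siTRIP12+siOTUD5 and 18.4, 16.4 and 14.4 CPM in siTRIP12 libraries. OAS3 had 27.7, 32.1 and 28.3 CPM in siOTUD5 and 29.04, 28.7 and 21.5 CPM in scrambled libraries. All siTRIP12 libraries lay below every library of the other groups, and scrambled replicate 3 was the lowest of its group and below the siTRIP12+siOTUD5 libraries. OAS3 fell after siTRIP12 (log2 -0.68 ± 0.11, edgeR adjusted p = 1.4e-04; -0.73 without replicate 3 of both scrambled and siTRIP12), was lower than after siOTUD5 (-0.84 ± 0.11, adjusted p = 1.8e-05), and was higher after siTRIP12+siOTUD5 than after siTRIP12 (0.50 ± 0.11, adjusted p = 0.005). OASL (chromosome 12, 121017761 to 121039246), an OAS relative without that enzyme activity, was low, at 1.11, 0.634 and 0.554 CPM in siTRIP12+siOTUD5 and 1.25, 0.754 and 0.8498 CPM in siTRIP12 libraries. OASL had 1.32, 1.12 and 1.34 CPM in siOTUD5 and 1.98, 1.72 and 1.52 CPM in scrambled libraries. The siTRIP12+siOTUD5 and siTRIP12 values all lay below the scrambled ones. It fell after siTRIP12+siOTUD5 (log2 -1.18 ± 0.28, edgeR adjusted p = 0.00408) and after siTRIP12 (-0.87 ± 0.27, adjusted p = 0.0219), where the call was lost without scrambled replicate 1 or siTRIP12 replicate 2 or 3 and without replicate 3 of both scrambled and siTRIP12 (highest adjusted p = 0.0976).

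ISG20 (chromosome 15, 88635632 to 88656483), an RNA exonuclease, was at 2.39, 3.28 and 3.45 CPM in siTRIP12+siOTUD5 and 3.63, 4.23 and 4.46 CPM in siTRIP12 libraries. ISG20 had 3.64, 3.06 and 3.78 CPM in siOTUD5 and 5.33, 4.68 and 5.09 CPM in scrambled libraries. Every knockdown library lay below every scrambled one. It fell after siTRIP12+siOTUD5 (log2 -0.73 ± 0.16, edgeR adjusted p = 0.00191) and after siOTUD5 (-0.53 ± 0.16, adjusted p = 0.0206), where the call was lost without scrambled replicate 1 or siOTUD5 replicate 2 (highest adjusted p = 0.0954). After siTRIP12 the difference of ISG20 was -0.30 ± 0.15 (adjusted p = 0.157).

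IFIT5 ranged over 15.8 to 17.7 CPM in siTRIP12+siOTUD5, 15.4 to 17.8 CPM in siTRIP12, 14.6 to 17.2 CPM in siOTUD5, against 18.5 to 20.5 CPM in scrambled libraries. Every knockdown library was below every scrambled library. It fell after siOTUD5 (log2 -0.29 ± 0.08, edgeR adjusted p = 0.0196), a call lost without scrambled replicate 1 or siOTUD5 replicate 2 or 3 (highest adjusted p = 0.1), and after siTRIP12 (-0.23 ± 0.08, adjusted p = 0.0461), a call lost in 15 of 21 alternatives, among them without scrambled replicate 1 or 2, or siTRIP12 replicate 2 or 3, or siOTUD5 replicate 3, or siTRIP12+siOTUD5 replicate 2 or 3. DDX60, a helicase of RNA sensing, ranged over 5.42 to 6.58 CPM in siTRIP12+siOTUD5, 4.198 to 4.32 CPM in siTRIP12, 4.39 to 6.61 CPM in siOTUD5, against 3.77 to 4.89 CPM in scrambled libraries. It was higher after siTRIP12+siOTUD5 than after scrambled siRNA (log2 0.44 ± 0.15, edgeR adjusted p = 0.0361), a call lost without scrambled replicate 1 or 3 or siTRIP12+siOTUD5 replicate 1 or 2 (highest adjusted p = 0.136), and than after siTRIP12 (0.49 ± 0.15, adjusted p = 0.0386), a call lost without siTRIP12 replicate 1 or 2 or 3 or siTRIP12+siOTUD5 replicate 1 or 2 or 3, with no filter and without replicate 3 of both scrambled and siTRIP12 (highest adjusted p = 0.138). IFIT2, IFIT3, OAS1 and OAS2 were called in none of the pairwise comparisons. OAS1 lay at 0.845 to 1.04 CPM in siTRIP12+siOTUD5, 0.571 to 1.29 CPM in siTRIP12, 0.804 to 1.16 CPM in siOTUD5, against 1.44 to 1.46 CPM in scrambled libraries, with no overlap between the scrambled libraries and the knockdown ones, and its siTRIP12 difference was -0.64 ± 0.28 (edgeR adjusted p = 0.0872).

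Of 5 tested membrane and virus-entry genes, IFITM3 alone was called in a pairwise comparison, beside 55.5% of all tested genes with such a call. IFITM3 (chromosome 11, 319676 to 320860) was measured at 99.5, 108 and 103 CPM in siTRIP12+siOTUD5 and 94.3, 98.3 and 114 CPM in siTRIP12 libraries. IFITM3 had 129, 128 and 126 CPM in siOTUD5 and 127, 135 and 148 CPM in scrambled libraries. All siTRIP12+siOTUD5 and siTRIP12 libraries lay below all libraries of the other groups. IFITM3 fell after siTRIP12+siOTUD5 (log2 -0.40 ± 0.07, edgeR adjusted p = 2.7e-04) and after siTRIP12 (-0.42 ± 0.07, adjusted p = 1.7e-04), with -0.10 ± 0.07 after siOTUD5 (adjusted p = 0.346). Against siOTUD5 it was lower after siTRIP12 (-0.32 ± 0.07, adjusted p = 0.0018) and after siTRIP12+siOTUD5 (-0.31 ± 0.07, adjusted p = 0.0093), the second call being lost without siTRIP12+siOTUD5 replicate 1 (highest adjusted p = 0.0591). Its paralog IFITM2 ranged over 50.03 to 54.4 CPM in siTRIP12+siOTUD5, 51.7 to 66.2 CPM in siTRIP12, 54.7 to 60.2 CPM in siOTUD5, against 55.5 to 64.7 CPM in scrambled libraries, with a siTRIP12 difference of -0.05 ± 0.08, and reads of the paralogs may be split between them by the counting. BST2, which tethers budding virus, ranged over 3.59 to 4.23 CPM in siTRIP12+siOTUD5, 3.85 to 4.07 CPM in siTRIP12, 2.65 to 3.24 CPM in siOTUD5, against 2.64 to 3.68 CPM in scrambled libraries. Every siTRIP12 library lay above every scrambled one for BST2, with a difference of log2 0.38 ± 0.16 (edgeR adjusted p = 0.07). It passed the 4-group test and no pairwise one. IFITM1 and MX1 passed none.

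Of the 5 remaining tested genes, IFI44 was the one member called higher after siTRIP12 than after scrambled siRNA. Against scrambled siRNA, 20% of the 5 were called in either direction after siTRIP12+siOTUD5 (all genes: 30.9%). That share was 60% after siTRIP12 (all genes: 31.9%) and 20% after siOTUD5 (all genes: 23.2%). IFI44 (chromosome 1, 78649789 to 78664078) had 9.55, 7.82 and 9.19 CPM in siTRIP12+siOTUD5 and 10.3, 11.1 and 10.6 CPM in siTRIP12 libraries. IFI44 had 7.11, 7.45 and 6.75 CPM in siOTUD5 and 6.76, 8.03 and 9.83 CPM in scrambled libraries. All siTRIP12 libraries lay above every other library, and the scrambled libraries overlapped with those of both other groups. IFI44 was higher after siTRIP12 than after siOTUD5 (log2 0.58 ± 0.12, edgeR adjusted p = 0.00164) and than after scrambled siRNA (0.37 ± 0.12, adjusted p = 0.0263), the second call being lost without scrambled replicate 1 or 2 or siTRIP12 replicate 2 or 3 and when only the groups compared were fitted (highest adjusted p = 0.121). SAMD9L (chromosome 7, 93130056 to 93148385), a growth-restraining antiviral protein, was low, at 2.195, 1.88 and 1.89 CPM in siTRIP12+siOTUD5 and 1.43, 1.42 and 1.03 CPM in siTRIP12 libraries. SAMD9L had 2.504, 2.62 and 3.19 CPM in siOTUD5 and 1.98, 2.39 and 1.904 CPM in scrambled libraries. The siTRIP12 libraries were the lowest 3 of the 12, and the siOTUD5 libraries were above all others. It was lower after siTRIP12 than after siOTUD5 (log2 -1.10 ± 0.20, edgeR adjusted p = 4.0e-04) and than after scrambled siRNA (-0.69 ± 0.20, adjusted p = 0.013), the second call being lost without scrambled replicate 2 or siTRIP12 replicate 3 and without replicate 3 of both scrambled and siTRIP12 (highest adjusted p = 0.0593).

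SAMD9L was also higher after siTRIP12+siOTUD5 than after siTRIP12 (log2 0.62 ± 0.20, edgeR adjusted p = 0.0437), a call lost in 14 of 21 alternatives, among them without scrambled replicate 1, or siTRIP12 replicate 1 or 2 or 3, or siOTUD5 replicate 1 or 2, or siTRIP12+siOTUD5 replicate 1 or 2 or 3. IFI35 ranged over 18.3 to 22.6 CPM in siTRIP12+siOTUD5, 14.6 to 20.5 CPM in siTRIP12, 19.1 to 22.3 CPM in siOTUD5, against 21.4 to 24.9 CPM in scrambled libraries. It fell after siTRIP12 (log2 -0.36 ± 0.11, edgeR adjusted p = 0.0216), a call lost without scrambled replicate 2 or siTRIP12 replicate 2 (highest adjusted p = 0.136). IFI6, a small mitochondrial protein, ranged over 2.97 to 4.004 CPM in siTRIP12+siOTUD5, 3.34 to 3.88 CPM in siTRIP12, 3.19 to 3.58 CPM in siOTUD5, against 3.83 to 5.55 CPM in scrambled libraries. It fell after siTRIP12+siOTUD5 (log2 -0.49 ± 0.16, edgeR adjusted p = 0.0305), a call lost without scrambled replicate 1 or siTRIP12+siOTUD5 replicate 2 or 3 and when only the groups compared were fitted (highest adjusted p = 0.171), and after siOTUD5 (-0.49 ± 0.16, adjusted p = 0.0379), a call lost without scrambled replicate 1 or 3 or siOTUD5 replicate 1 or 2 or 3, when only the groups compared were fitted and without replicate 3 of both scrambled and siTRIP12 (highest adjusted p = 0.191). SAMD9 passed no test.

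The interferon genes themselves had few reads or none. Of 21 interferon genes, 19 were listed at 0 in all 12 libraries, IFNB1 had 1 read in all 12 together, and IFNE, a type I interferon of reproductive epithelium, was the only one tested and was called in none of the comparisons. Of 10 tested receptor and signalling genes, 3 were lower after siTRIP12 (the receptor chains IFNAR1 and IFNAR2 and the kinase JAK1), 3 were higher after siOTUD5 (STAT3, IFNGR1 and IL10RB), and 1, STAT3, was higher after siTRIP12+siOTUD5. Called in either direction were 10% after siTRIP12+siOTUD5 (all genes: 30.9%), 30% after siTRIP12 (all genes: 31.9%) and 30% after siOTUD5 (all genes: 23.2%). In the direction of these calls, the share of all genes was 14.7% higher after siTRIP12+siOTUD5, 17.4% lower after siTRIP12 and 11.4% higher after siOTUD5. JAK1 averaged 148 ± 4.79 CPM in siTRIP12+siOTUD5, 125 ± 6.24 CPM in siTRIP12, 146 ± 3.65 CPM in siOTUD5, and 142 ± 12.9 CPM in scrambled libraries (SD, n = 3 each), lower after siTRIP12 than after scrambled siRNA (log2 -0.18 ± 0.06, edgeR adjusted p = 0.034). IFNGR1, a receptor chain for interferon gamma, averaged 17.7 ± 0.104 CPM in siTRIP12+siOTUD5, 14.9 ± 0.56005 CPM in siTRIP12, 19.96 ± 1.23 CPM in siOTUD5, and 16.2 ± 1.33 CPM in scrambled libraries, higher after siOTUD5 (log2 0.30 ± 0.08, edgeR adjusted p = 0.01).

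Of 13 tested genes of nucleic acid sensing, 4 were lower after siTRIP12 (TLR3, IKBKE, IRF3 and TRIM25), 4 after siOTUD5 (STING1, IKBKE, IRF3 and TRAF6), and 2 after siTRIP12+siOTUD5 (IKBKE and IRF3), with every call in these comparisons in that direction. Called lower were 15.4% after siTRIP12+siOTUD5 (all genes: 16.2%), 30.8% after siTRIP12 (all genes: 17.4%) and 30.8% after siOTUD5 (all genes: 11.9%). In either direction, the shares of all genes were 30.9%, 31.9% and 23.2%, in the same order. IKBKE, a kinase that activates IRF3, averaged 26.1 ± 1.16 CPM in siTRIP12+siOTUD5, 20.7 ± 0.172 CPM in siTRIP12, 30.7 ± 0.5305 CPM in siOTUD5, and 35.2 ± 2.38 CPM in scrambled libraries (SD, n = 3 each), with log2 changes of -0.43 ± 0.07, adjusted p = 1.1e-04 after siTRIP12+siOTUD5, -0.76 ± 0.07, adjusted p = 1.7e-07 after siTRIP12 and -0.19 ± 0.07, adjusted p = 0.0417 after siOTUD5 (edgeR). TLR3, the endosomal sensor of double-stranded RNA, averaged 2.598 ± 0.202 CPM in siTRIP12+siOTUD5, 1.74 ± 0.297 CPM in siTRIP12, 3.48 ± 0.3903 CPM in siOTUD5, and 3.36 ± 0.305 CPM in scrambled libraries, and fell after siTRIP12 (log2 -0.95 ± 0.17, edgeR adjusted p = 3.8e-04). CGAS, the sensor of cytosolic DNA, was listed at 0 in every library, which can again be a failed estimate.

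Of 29 other interferon-induced genes tested, 8 were lower and 1 higher (TRIM14) after siTRIP12, 1 was lower (TRIM5) and 3 higher after siOTUD5, and 4 were lower and 6 higher after siTRIP12+siOTUD5. Together this is 34.5% after siTRIP12+siOTUD5 (all genes: 30.9%), 31% after siTRIP12 (all genes: 31.9%) and 13.8% after siOTUD5 (all genes: 23.2%), near or below the share of all genes. The medians were log2 -0.13 after siTRIP12, 0.05 after siOTUD5 and -0.03 after siTRIP12+siOTUD5. UBE2L6, the conjugating enzyme for ISG15, averaged 29.5 ± 1.11 CPM in siTRIP12+siOTUD5, 24.7 ± 0.385 CPM in siTRIP12, 37.4 ± 0.658 CPM in siOTUD5, and 40.5 ± 2.25 CPM in scrambled libraries (SD, n = 3 each). It fell after siTRIP12+siOTUD5 (log2 -0.46 ± 0.06, edgeR adjusted p = 3.8e-05) and after siTRIP12 (-0.72 ± 0.06, adjusted p = 1.8e-07). TRIM5, a restriction factor against retroviruses, averaged 44.2 ± 2.59 CPM in siTRIP12+siOTUD5, 55.4 ± 1.25 CPM in siTRIP12, 40.9 ± 0.968 CPM in siOTUD5, and 55.5 ± 1.701 CPM in scrambled libraries, and fell after siTRIP12+siOTUD5 (log2 -0.33 ± 0.06, edgeR adjusted p = 4.2e-04) and siOTUD5 (-0.44 ± 0.06, adjusted p = 4.7e-05).

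Antigen presentation, here largely through MHC class I, is another known target of interferon and IRF1. After siTRIP12, 14 of 16 tested genes were lower, which were all that were called, with a median of log2 -0.58, beside 0.01 over all genes. CIITA, a regulator of MHC class II that is also on the list, had 121 reads over the 12 libraries and was not among the 14. After siTRIP12+siOTUD5, all 9 genes called were lower (median -0.31). After siOTUD5, 4 were lower (PSMB8 and PSMB10 among them) and 1 higher (ERAP1), with a median of -0.16. The share called lower was 56.2% after siTRIP12+siOTUD5 (all genes: 16.2%), 87.5% after siTRIP12 (all genes: 17.4%) and 25% after siOTUD5 (all genes: 11.9%), and in either direction after siOTUD5 it was 31.2%, beside 23.2% of all genes. This list was chosen with earlier results of these data known, so its shares are no independent test. TAP1, a subunit of the peptide transporter, averaged 32.9 ± 2.87 CPM in siTRIP12+siOTUD5, 23.01 ± 2.18 CPM in siTRIP12, 47.1 ± 0.709 CPM in siOTUD5, and 41.7 ± 2.31 CPM in scrambled libraries (SD, n = 3 each), with log2 changes of -0.34 ± 0.08, adjusted p = 0.0028 after siTRIP12+siOTUD5 and -0.86 ± 0.08, adjusted p = 2.8e-07 after siTRIP12 (edgeR). PSMB8, an immunoproteasome subunit, averaged 30.4 ± 1.604 CPM in siTRIP12+siOTUD5, 23.9 ± 1.86 CPM in siTRIP12, 35.3 ± 2.29 CPM in siOTUD5, and 44.3 ± 1.497 CPM in scrambled libraries, with log2 changes of -0.54 ± 0.07, adjusted p = 3.0e-05 after siTRIP12+siOTUD5 and -0.89 ± 0.07, adjusted p = 7.8e-08 after siTRIP12 (edgeR). HLA-C, a class I heavy chain, averaged 31.8 ± 1.299 CPM in siTRIP12+siOTUD5, 24.02 ± 0.917 CPM in siTRIP12, 38.03 ± 0.674 CPM in siOTUD5, and 38.4 ± 1.26 CPM in scrambled libraries, with log2 changes of -0.27 ± 0.06, adjusted p = 0.00305 after siTRIP12+siOTUD5 and -0.68 ± 0.06, adjusted p = 3.1e-07 after siTRIP12 (edgeR). The HLA class I genes are near-identical in part, so reads may be split among them. The 14 became 12 to 15 when single libraries were left out, and 14 without replicate 3 of both scrambled and siTRIP12.

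**Figure D4:**
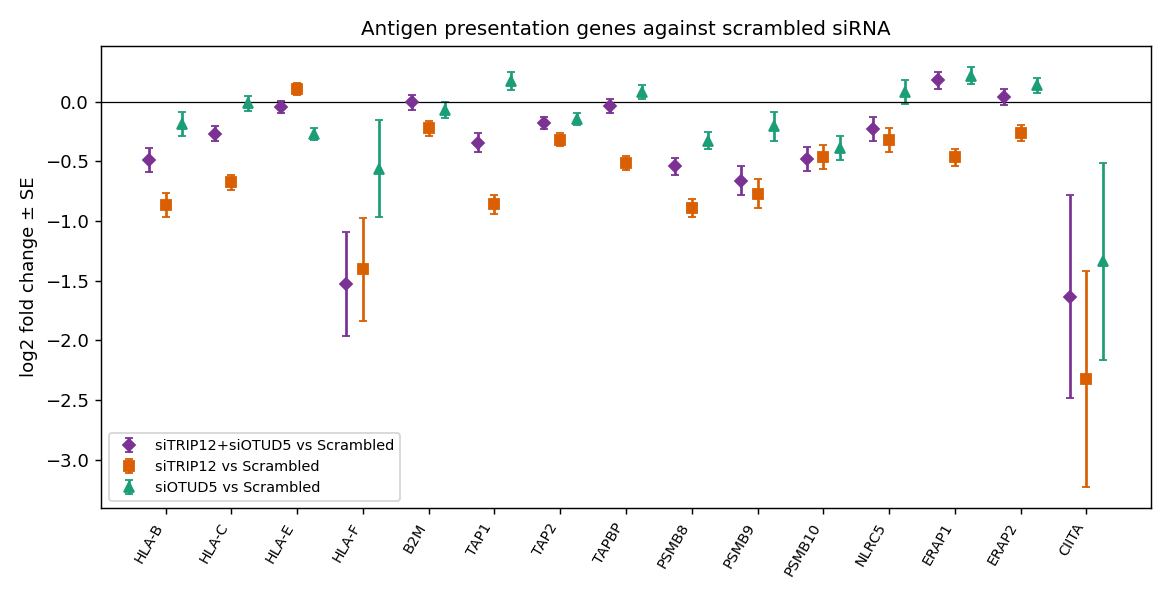
Log2 fold changes against scrambled siRNA (points, with SE as bars) of 15 of the 16 antigen presentation genes, for siTRIP12+siOTUD5, siTRIP12 and siOTUD5. After siTRIP12, TAP1 lies at -0.86 and PSMB8 at -0.89, and after siTRIP12+siOTUD5 they lie at -0.34 and -0.54.

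Among 10 tested negative regulators other than ISG15 and USP18, 2 were higher (PIAS1 and PTPN1) and 2 lower (SOCS3 and TRIM27) after siTRIP12, 2 higher (PIAS4 and PTPN1) and 1 lower (PTPN2) after siOTUD5, and 1 higher (PTPN1) and 1 lower (TRIM27) after siTRIP12+siOTUD5. The called share was 20% after siTRIP12+siOTUD5 (all genes: 30.9%), below that of all genes. It was 40% after siTRIP12 (all genes: 31.9%) and 30% after siOTUD5 (all genes: 23.2%), not far above that of all genes for a list of 10. PTPN1, a phosphatase that acts on the receptor kinases, averaged 188 ± 1.68 CPM in siTRIP12+siOTUD5, 179 ± 1.87 CPM in siTRIP12, 180.4 ± 3.28 CPM in siOTUD5, and 114 ± 3.67 CPM in scrambled libraries (SD, n = 3 each). It rose after siTRIP12+siOTUD5 (log2 0.73 ± 0.04, edgeR adjusted p = 3.3e-09), siTRIP12 (0.65 ± 0.04, adjusted p = 8.1e-09) and siOTUD5 (0.66 ± 0.04, adjusted p = 1.8e-08). SOCS3, which inhibits cytokine receptor kinases, averaged 42.5 ± 3.496 CPM in siTRIP12+siOTUD5, 32.9 ± 1.02 CPM in siTRIP12, 44.8 ± 0.888 CPM in siOTUD5, and 41.1 ± 0.294 CPM in scrambled libraries and fell after siTRIP12 (log2 -0.32 ± 0.06, edgeR adjusted p = 0.00107).

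Whether the siTRIP12 change depended on siOTUD5 was tested as an interaction, the siTRIP12 change in the presence of siOTUD5 minus that in its absence. It was called for 2 of 31 members, both positive, beside 4.61% of all genes positive and 3.55% negative (8.16% in either direction), with a median of log2 0.25 against 0.01 over all genes. With upper-quartile factors the balance over all genes turned here too, to 553 positive and 638 negative in place of 751 and 578, and 1 member, DTX3L, was called. DTX3L was called in every alternative run (log2 0.60 ± 0.11, edgeR adjusted p = 0.00196). PARP9 (0.42 ± 0.12, adjusted p = 0.0409) lost its call with upper-quartile factors, with no filter and with limma-voom. It also lost it without scrambled replicate 1 or 2, or siTRIP12 replicate 2 or 3, or siOTUD5 replicate 1 or 2 or 3, or siTRIP12+siOTUD5 replicate 1 or 2 or 3, and the count of members was then 1. Without scrambled replicate 3 the count was 5, and without replicate 3 of both scrambled and siTRIP12 it was also 5. Among the antigen presentation genes, 7 of 16 were called, all positive, including HLA-C (0.42 ± 0.09, adjusted p = 0.00678) and PSMB8 (0.68 ± 0.10, adjusted p = 5.6e-04). The interaction for IRF1 was 0.32 ± 0.12 (adjusted p = 0.113, 95% interval 0.07 to 0.57), and for ISG15 0.38 ± 0.12 (adjusted p = 0.0667). The remaining TRIP12 was unequal, at 50.1 to 55.0 CPM in siTRIP12+siOTUD5 and 38.9 to 46.2 CPM in siTRIP12 libraries. Its part in the interaction was not tested.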

How the data were processed

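RNA of 12 HT1080 libraries, 3 in each of 4 siRNA groups assigned from the sample titles, was isolated on columns, and strand-specific libraries were prepared from its poly(A) RNA, per the labels. HISAT2, StringTie and the build GRCh38 are named in the submitters' processing notes, without versions or roles. Read counts per gene were deposited as whole numbers, and the authors' FPKM and TPM values stand beside them in the deposited table, per the file headers. FPKM served only to derive transcript length, and TPM to compare levels between genes.

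Counts were tested in R 4.3.3 with edgeR 4.0.16 (quasi-likelihood, robust, TMM factors, 1 mean per group, 8 residual degrees of freedom), on the 16283 genes kept by filterByExpr, with Benjamini-Hochberg adjustment over all of them. CPM are counts scaled to TMM-adjusted library totals. Totals of 37912312 to 43881471 reads set the precision, and the common biological coefficient of variation was 0.0822. limma 3.58.1 (voom) and DESeq2 1.42.0 were alternatives, beside other scalings, filters, a replicate block and leaving out each library. The test was tried on simulated counts with known changes.

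The members, gene lists and roles were chosen with earlier results of these data known. Values in every library are given for the 16 called members with the smallest 4-group p and for IRF9 and IRF7, and pathway genes are those with the smallest 4-group p, up to 4 per list. Other pathway genes were named after their values were seen, to complete a small count. Values of 1 antigen presentation gene are not reported here. Same-numbered replicates did not deviate together (18 pairs, r of -0.0734 to 0.0473), so numbers were not used as pairs. Positions, promoters and names came from RefSeq GRCh38.p14, which may differ from the authors' annotation.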

Additional observations from a re-analysis of the deposited data

Results flagged for a closer look

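DTX3L and PARP9, the overlapping partner genes of a ubiquitin ligase complex on chromosome 3, were called as responding differently to siTRIP12 depending on whether siOTUD5 was present, by the interaction test in edgeR. They were the 2 called of 31 tested members, or 6.45%, beside 8.16% of all genes. For DTX3L the siTRIP12 change with siOTUD5 exceeded that without it by log2 0.60 ± 0.11 (SE; adjusted p = 0.00196). For PARP9 the same difference was log2 0.42 ± 0.12 (adjusted p = 0.0409). Both genes were higher in the 3 siTRIP12+siOTUD5 libraries than in the 3 siTRIP12 libraries, without overlap. The remaining TRIP12 was also higher there (50.1 to 55.0 CPM against 38.9 to 46.2 CPM), and its part in these results was not tested. Whether the counting used strand is not stated, so how reads in the 447 bases shared by DTX3L and PARP9 were assigned is not known. PARP9 was not called with upper-quartile factors, with no filter on low counts or with limma-voom, nor when scrambled replicate 1 or 2, siTRIP12 replicate 2 or 3, or any siOTUD5 or siTRIP12+siOTUD5 library was left out.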

How the results depend on the processing

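Of 51 member changes called at an adjusted p under 0.05, 27 were called in every alternative run (21 alternatives, or 20 for OASL after siTRIP12+siOTUD5 and for the DTX3L interaction), 24 lost the call in at least 1, and 0 reversed. Counts called ranged, when 1 library was left out, over 9 to 16 for siTRIP12 and 3 to 7 for siOTUD5 against scrambled, 7 to 11 for siTRIP12+siOTUD5 against scrambled, 3 to 8 for siTRIP12+siOTUD5 against siTRIP12 and 0 to 4 against siOTUD5, 7 to 11 for siTRIP12 against siOTUD5, 1 to 5 for the interaction, 13 to 19 for the 4-group test, and 12 to 15 for antigen presentation after siTRIP12. The interaction called 1 member with upper-quartile factors, 1 with no filter on low counts, 1 with limma-voom, and 5 without replicate 3 of both scrambled and siTRIP12, a setting chosen after seeing the data. For siTRIP12+siOTUD5 against siOTUD5, 5 were called when only the groups compared were fitted and 5 without those 2 libraries. The causes were not tested. Upper-quartile factors split siTRIP12 against siOTUD5 into 3 higher and 7 lower, in place of 1 and 8, with no shift of the median gene over 0.1. Over all genes they turned the balance of higher and lower calls in every comparison but siTRIP12+siOTUD5 against siOTUD5. With a replicate block, 14, 7 and 10 members were called for siTRIP12, siOTUD5 and siTRIP12+siOTUD5 against scrambled, 4 for siTRIP12+siOTUD5 against siTRIP12, 3 against siOTUD5, 8 for siTRIP12 against siOTUD5, 2 for the interaction and 16 in the 4-group test, and labels do not say that numbers pair samples. The block ended the calls of IFIH1 for siTRIP12 against siOTUD5, of DDX60 and SAMD9L for siTRIP12+siOTUD5 against siTRIP12, and of IFIT5 for siTRIP12 against scrambled. Depth limits the 7 members under the filter. They were all tested with no filter on low counts, where every member called was one also called with the filter. Without replicate 3 of both scrambled and siTRIP12, 32 members passed the filter, in place of 31.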

Other observations

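Of 5 tested mesenchymal markers, the 4 genes VIM, SPARC, MMP2 and PDGFRB were lower after siTRIP12 and after siTRIP12+siOTUD5 than after scrambled siRNA. After siOTUD5, PDGFRB was at log2 -0.68 (edgeR adjusted p = 0.0539) and the other 4 lay between -0.11 and 0.24. The endothelial marker PECAM1 was lower in all 3 knockdown groups than in scrambled libraries, at summed endothelial marker levels of 2.43 CPM or less. Whether these shifts have a part in the changes of interferon genes was not tested.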
